A study of Mus musculus with 8 samples.

Results

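Leukocyte integrins were examined through the 10 subunit genes Itgam, Itgax, Itgal, Itgb2, Itga4, Itga5, Itgav, Itgb1, Itgae and Itgb7, chosen by name as the alpha and beta chains that white blood cells use for adhesion. All 10 were found, on 10 of the 24625 rows of the expression table, and none of them had more than 1 row. The table holds log2 intensities of Affymetrix Mouse Gene 1.1 ST arrays, 1 array for each of 8 samples of lung neutrophils. Samples 1 to 4 of the PBS group came from wild type (WT) mice that were instilled with phosphate-buffered saline, and samples 1 to 4 of the SP group from WT mice instilled with Streptococcus pneumoniae, a cause of bacterial pneumonia. Both were given into the left lung by way of the trachea, in a volume of 2.3 µl for each g the mouse weighed. Lungs were taken 24 h later. Mice were 6 to 12 weeks old by the labels and of the C57BL/6J strain by the methods, and neither group carried a transgene or deletion. Neutrophils were collected from enzyme-digested lungs on magnetic beads by an antibody to Ly6G, which marks mouse neutrophils, with no further sort. The study describes each sample as coming from a mouse, so p-values measure the spread between these 8 samples.

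Integrins are adhesion receptors made of 1 alpha and 1 beta chain. The β2 chain (Itgb2, CD18) pairs with αM (Itgam, CD11b), αX (Itgax, CD11c) and αL (Itgal, CD11a) and is found on leukocytes alone, where it binds ICAM proteins on endothelium, fibrinogen and complement fragments on microbes. The β1 chain (Itgb1, CD29) pairs with α4 (Itga4), α5 (Itga5), αV (Itgav) and others to bind fibronectin, further matrix proteins and VCAM-1. The β7 chain (Itgb7) pairs with α4, for homing to mucosa, and with αE (Itgae, CD103), which binds E-cadherin of epithelium. Neutrophils depend on β2 integrins to arrest on vessel walls and to take up opsonised bacteria, and in the lung they can leave capillaries by routes that need β2 integrins or by routes that do not.

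During pneumonia the integrin genes changed unequally. Itga5 rose 5.22-fold, Itgax 2.39-fold and Itgb7 2.17-fold, and Itgae rose from a PBS level near background. Itgb1, Itgav and Itgam rose less, and Itga4 fell by 0.81 on the log2 scale. The values of Itgb7, Itgam and Itga4 overlapped between groups, as did those of Itgb2 and Itgal, which showed no clear difference. The results for Itgb7, Itgam and Itga4 depended on the processing and on single samples, as given below. At an adjusted p of at most 0.05 (limma, two-sided, Benjamini-Hochberg over all rows), here termed a call, 8 of the 10 genes differed, 7 higher and 1 lower in SP. Of all rows, 44.1% were called, 21.5% higher and 22.6% lower. Calls with at least a 2-fold difference numbered 4 higher and 0 lower among the 10 genes, against 6.37% and 11.3% of all rows. The 4 became 2 without PBS sample 4, SP sample 1 or SP sample 2. The 4 SP and 4 PBS values did not overlap for 5 of the 10 genes, against 49.0% of all rows, so this share was near that of the table. The median difference of the 10 genes was 0.55 log2 units (SP minus PBS), beside 0.10 over all rows. Without SP sample 3, 6 genes were called higher and 0 lower, and without PBS sample 2, 5 were called higher and 1 lower.

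**Figure D1:**
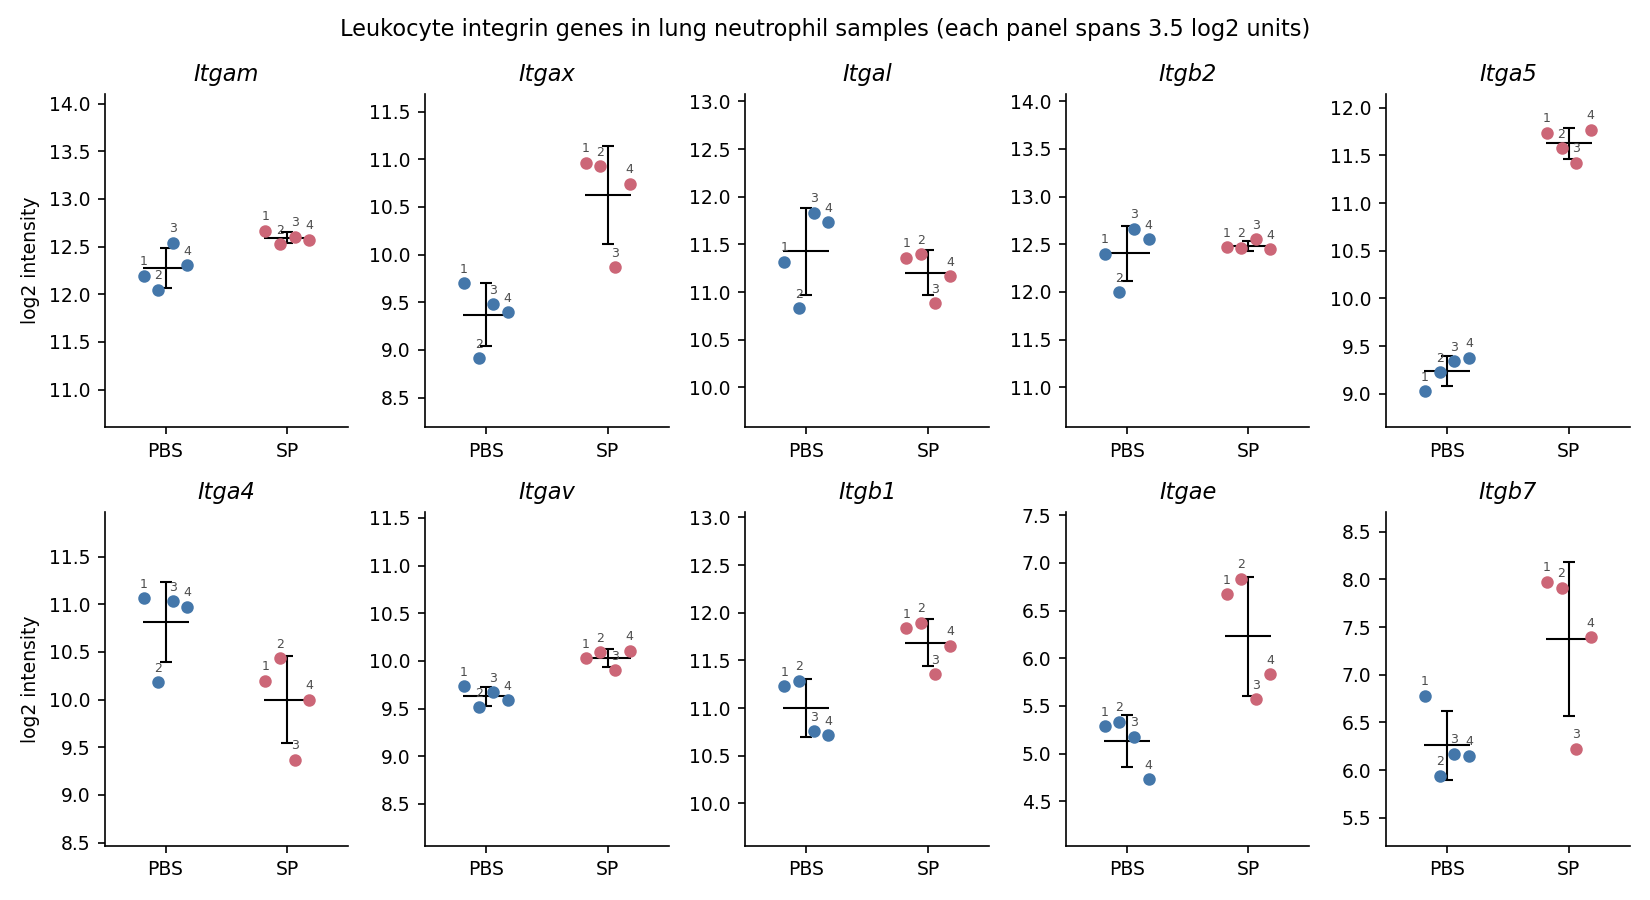
Log2 intensity (y axis) of the 10 leukocyte integrin genes in each of 4 PBS and 4 SP samples (points, numbered by sample), with the mean (long line) and SD (bars). Each panel spans the same number of log2 units but starts at its own level. Itga5 shows the widest gap between groups, PBS sample 2 lies low for Itga4, and SP sample 3 lies lowest of its group for Itgax, Itgae and Itgb7.

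The samples held RNA of other lung cells beside neutrophils. The paper evaluated purity on stained cells of samples from mice with pneumonia, and reported it as high. The few other cells seen there usually looked like alveolar macrophages. Of 11 neutrophil markers, 3 were called lower in SP and 0 higher, beside 22.6% lower and 21.5% higher of all rows. Their mean per sample was 12.25 to 12.50 log2 units in PBS and 11.69 to 12.84 in SP. Lcn2, which encodes an iron-sequestering granule protein, averaged 13.32 in PBS and 13.54 in SP (adjusted p = 0.0505), and Retnlg, a resistin-like secreted protein gene, 13.36 and 12.88 (adjusted p = 0.0418). All 10 measured epithelial markers were called lower in SP, with a list mean of 11.61 to 12.12 in PBS and 9.88 to 10.75 in SP, as were 7 of 9 endothelial markers (10.26 to 11.20 in PBS, 8.70 to 9.87 in SP) and 6 of 7 B cell markers (7.62 to 8.51 in PBS, 6.04 to 7.08 in SP). SP sample 3 had the highest neutrophil mean and the lowest epithelial, endothelial and B cell means of its group. The gap in the neutrophil list was widest for Camp, Ltf and Ngp. They read 10.94, 12.10 and 13.34 in SP sample 3, against 7.60 to 8.17, 9.69 to 10.22 and 10.62 to 12.25 in the other SP samples. Csf3r alone of that list was lowest in SP sample 3 (12.67). PBS sample 2 had the lowest neutrophil mean and the highest epithelial and endothelial means of its group. In such bulk samples, fewer cells of a type and less RNA per cell cannot be told apart.

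Itga5 had the largest difference of the 10 genes. Its product, the α5 chain, forms with β1 the classical fibronectin receptor. Its log2 intensities were 9.03, 9.22, 9.34 and 9.38 in PBS samples 1 to 4 and 11.74, 11.58, 11.42 and 11.77 in SP samples 1 to 4. Every SP value lay over 2 log2 units above every PBS value, and the SD was 0.16 in each group (n = 4). The difference was 2.38 ± 0.11 log2 units (SE; 95% interval 2.13 to 2.64), with an adjusted p of 4.34e-06, and the call was made under each of 15 alternatives, in which it ranged from 2.27 to 2.67.

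Itgb1, the partner chain of α4, α5 and αV, rose less. Its values were 11.23, 11.29, 10.76 and 10.72 in PBS and 11.84, 11.90, 11.35 and 11.65 in SP. The groups did not overlap, although SP sample 3 lay only just above PBS sample 2, and the rise was 0.69 ± 0.18 log2 units (SE; 1.61-fold, adjusted p = 0.0139). Quantile normalization of the deposited values lowered it to 0.46 and ended the call (adjusted p = 0.122). Itgav, whose αV chain binds vitronectin and other proteins that carry an RGD motif, read 9.73, 9.52, 9.67 and 9.58 in PBS and 10.03, 10.09, 9.90 and 10.11 in SP. This was a small rise with little spread, 0.40 ± 0.08 log2 units (SE; 1.32-fold, adjusted p = 0.00455), and the groups did not overlap. Within PBS, Itgb1 and the endothelial marker mean (10.88, 11.20, 10.37 and 10.26) were both higher in samples 1 and 2, while between groups Itgb1 rose and endothelial markers fell. The part of other lung cells in the rises of Itga5, Itgb1 and Itgav was not tested.

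Itga4 moved the other way. The α4 chain pairs with β1 or β7 to bind VCAM-1, fibronectin and MAdCAM-1. Its values were 11.06, 10.18, 11.03 and 10.97 in PBS and 10.20, 10.43, 9.37 and 10.001 in SP. PBS sample 2 stood apart from the other PBS samples and lay within the SP range, while the remaining 3 PBS samples lay above all SP samples. Itga4 fell by 0.81 log2 units (SE 0.27, 95% interval -1.43 to -0.19, adjusted p = 0.0394). The call was lost in 9 of 15 alternatives, among them the replicate block (adjusted p = 0.0831), and the difference was -1.02 (adjusted p = 0.0114) without PBS sample 2 and -0.60 (adjusted p = 0.0691) without SP sample 3. As given above, 6 of 7 B cell markers were called lower in SP. SP sample 3 was lowest of its group for Itga4 and for the B cell mean (6.04). In PBS, sample 2 was lowest for Itga4 and sample 3 for the B cell mean (7.75 and 7.62 in samples 2 and 3). The part of B cells and other lung cells in the fall of Itga4 was not tested.

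The β2 family was led by Itgax. CD11c, which it encodes, binds complement fragments and fibrinogen and is also abundant on dendritic cells and alveolar macrophages. Itgax read 9.70, 8.91, 9.48 and 9.39 in PBS and 10.97, 10.93, 9.87 and 10.74 in SP. The groups did not overlap, but SP sample 3 lay only just above PBS sample 1. Itgax rose by 1.25 ± 0.27 log2 units (SE; 95% interval 0.64 to 1.87, adjusted p = 0.00597), and by 1.51 (adjusted p = 0.000542) without SP sample 3. The call was made in each of 15 alternatives.

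Other markers of the cells that share CD11c did not move as 1 block. Of 10 measured alveolar macrophage markers, 6 were called lower and 1 higher in SP, beside 22.6% lower and 21.5% higher of all rows. Their mean per sample was 9.04 to 9.80 in PBS and 7.85 to 8.65 in SP. Of 9 dendritic cell markers, 2 were called lower and 1 higher (list mean 5.72 to 6.06 in PBS, 5.47 to 5.56 in SP). Of 10 monocyte and macrophage markers, 4 were called higher and 0 lower. In neither of these 2 lists did the total share called exceed the 44.1% of all rows. The monocyte and macrophage mean of 8.94, 8.09, 8.62 and 8.52 in PBS and 9.25, 9.18, 8.11 and 9.54 in SP was low in SP sample 3, as Itgax was. The part of these cells in the rise of Itgax was not tested. On neutrophils gated by Ly6G and another marker, the paper measured more CD11c protein in pneumonia. CD11b protein was higher there without significance.

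Itgam, the αM chain of the complement receptor Mac-1, was bright in all samples. It read 12.20, 12.05, 12.54 and 12.30 in PBS and 12.66, 12.52, 12.60 and 12.57 in SP. PBS sample 3 lay within the SP range, so the groups overlapped. Itgam rose by 0.32 ± 0.11 log2 units (SE; 1.25-fold, adjusted p = 0.0437). The call was lost in 11 of 15 alternatives, with the replicate block among them (adjusted p = 0.0578), and leaving out any 1 sample other than PBS sample 3 ended it (difference 0.24 to 0.41 over the 8 omissions, adjusted p 0.0109 to 0.109).

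Itgb2, the shared β2 chain, read 12.40, 12.00, 12.66 and 12.56 in PBS and 12.47, 12.46, 12.55 and 12.45 in SP. The SP samples lay close together and inside the PBS range. The difference was 0.08 ± 0.14 log2 units (SE; 95% interval -0.24 to 0.39, adjusted p = 0.652). On the deposited scale alone, a rise above 0.39 or a fall beyond -0.24 lies outside the interval. With arrays centred on their medians the difference was 0.36 (adjusted p = 0.0766 by limma), which was not called. The sign turned without PBS sample 2 (-0.06), under array weights (-0.04) and under quantile normalization (-0.12). Itgal, the αL chain of LFA-1, which binds ICAM proteins, read 11.32, 10.83, 11.83 and 11.73 in PBS and 11.36, 11.40, 10.88 and 11.17 in SP. The groups overlapped, with PBS sample 2 the lowest of all 8, and the difference was -0.23 ± 0.23 (SE; 95% interval -0.74 to 0.29, adjusted p = 0.410), or 0.05 with arrays centred on their medians.

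Itgae and Itgb7 encode the chains of αEβ7, best known from T cells and dendritic cells that reside in epithelium. Itgae read 5.29, 5.34, 5.18 and 4.73 in PBS and 6.67, 6.84, 5.57 and 5.83 in SP. SP samples 1 and 2 stood well above SP samples 3 and 4, and the lowest SP sample lay above all PBS samples. PBS sample 4 lay within the 4.33 to 4.90 of 3 Y-linked genes, which served as a measure of background, and PBS samples 1 to 3 lay little above it. This measure holds for female mice. The paper says that females were purchased to found colonies and that the mice studied were matched for sex. Itgae rose by 1.10 ± 0.29 log2 units (SE; 95% interval 0.42 to 1.77, adjusted p = 0.0174), and the call was made in each of the 14 alternatives that tested it.

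Itgb7 read 6.78, 5.94, 6.17 and 6.15 in PBS and 7.97, 7.91, 6.23 and 7.40 in SP. SP sample 3 lay below PBS sample 1, and the other 3 SP samples lay above all PBS samples. The rise was 1.12 ± 0.38 log2 units (SE; 95% interval 0.24 to 1.99, adjusted p = 0.0434), and 1.50 (adjusted p = 0.00163) without SP sample 3. It was not called by the methods' t-test (adjusted p = 0.0863), nor when PBS sample 2, 3 or 4 or SP sample 1, 2 or 4 was left out (0.92 to 1.11).

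T cell and NK cell markers were dim on average, and their list means were highest in the SP samples with the highest Itgae. The mean of 9 T cell markers was 6.17, 5.57, 5.71 and 5.71 in PBS and 6.55, 6.75, 5.68 and 5.65 in SP. Of these markers Cd3d alone was called, higher by 0.69 log2 units (adjusted p = 0.0209) and highest in SP sample 3 (6.22, against 5.71 and 5.67 in SP samples 1 and 2). Cd3e differed by 0.29 (adjusted p = 0.580), Tcf7 by -0.02 (adjusted p = 0.935) and Cd4 by -0.27 (adjusted p = 0.274). The mean of 7 NK cell markers was 4.99 to 5.27 in PBS and 5.72, 5.65, 5.20 and 5.15 in SP samples 1 to 4. Klrk1, an activating receptor gene, was called higher by 1.14, and Gzma differed by 0.30 (adjusted p = 0.328). SP samples 1 and 2 were highest in both lists and for both αEβ7 chains. SP sample 4 was at 7.40 for Itgb7 with a T cell mean of 5.65, inside the PBS range. The part of T and NK cells in the rises of Itgae and Itgb7 was not tested. For CD103, the paper measured more surface protein in pneumonia on neutrophils gated by Ly6G and another marker.

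**Figure D2:**
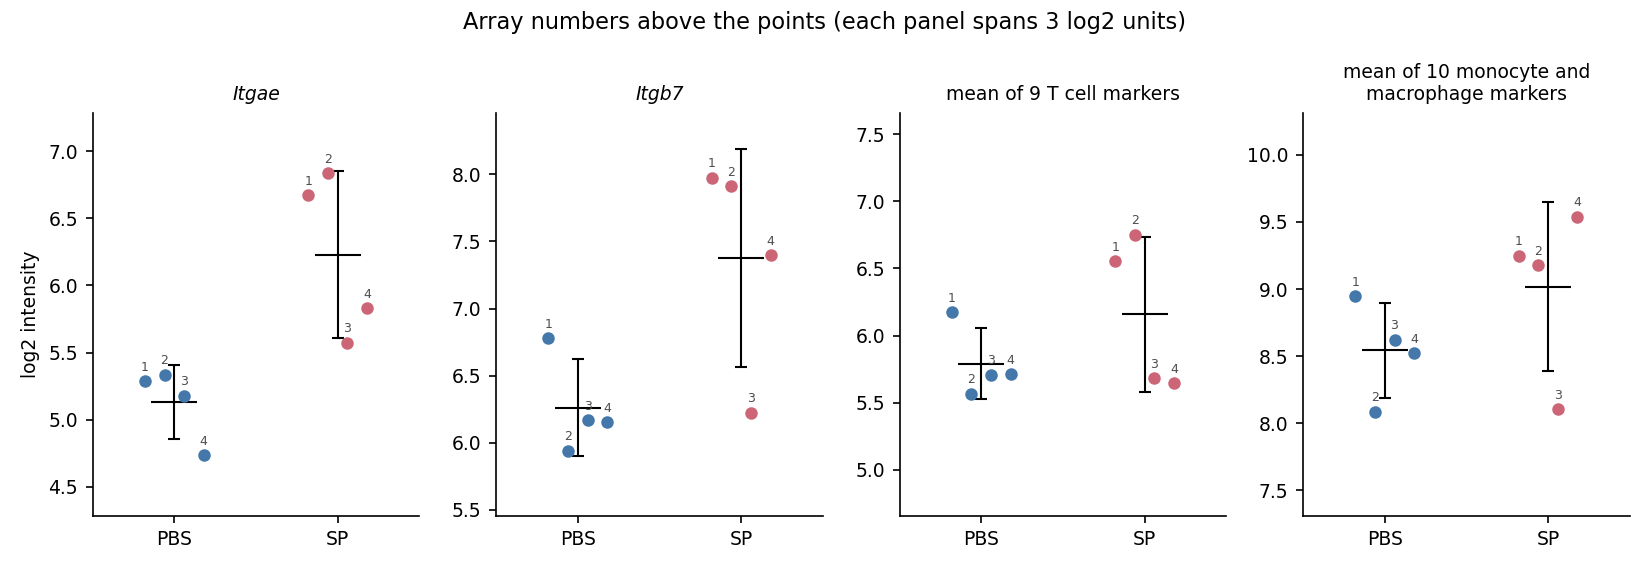
Log2 intensity (y axis) of Itgae, of Itgb7, and of the means of 9 T cell and of 10 monocyte and macrophage markers in each of 4 PBS and 4 SP samples (points, numbered by sample), with mean (long line) and SD (bars). SP samples 1 and 2 are highest for both genes and for the T cell markers, and SP sample 3 is lowest of its group for both genes and for the monocyte and macrophage markers.

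An alpha chain reaches the cell surface only with a beta chain, so partner genes were compared within each array. The log2 value of the alpha gene minus that of the beta gene was taken for 8 known pairs. Its level carries the brightness of different probes and has no meaning between genes. Its difference between groups shows whether both genes changed alike in the whole sample, and scaling an array by a constant does not alter it. Both genes are read over all cells of a sample, and the part of the mix of cells in any shift was not tested. Groups were compared by exact permutation (two-sided, 70 arrangements, smallest possible p 0.0286), with p adjusted over the 8 pairs.

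Relative to Itgb1, Itga5 was higher in SP and Itga4 lower. Itga5 minus Itgb1 was -2.20, -2.06, -1.41 and -1.34 in PBS and -0.10, -0.32, 0.07 and 0.12 in SP, a shift of 1.70 log2 units. Itga4 minus Itgb1 was -0.17, -1.10, 0.28 and 0.26 in PBS and -1.64, -1.46, -1.98 and -1.65 in SP, a shift of -1.50. The groups did not overlap in either pair, and PBS sample 2 was nearest to SP in the second. Itga4 minus Itgb7 shifted by -1.93, from 4.25 to 4.86 in PBS to 2.23 to 3.15 in SP. In the β2 family, Itgax minus Itgb2 shifted by 1.18 and Itgam minus Itgb2 by 0.24, also without overlap. Each of these 5 shifts had the smallest exact permutation p, 0.0286, and an adjusted p of 0.0457. An adjusted p below 0.05 needed at least 5 of the 8 pairs at this smallest p. These calls therefore rest on each other, and several of the pairs share a chain.

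For the remaining pairs no difference was called. Itgae minus Itgb7 shifted by -0.02 (exact permutation p = 0.914, adjusted p = 0.914), and SP and PBS values were interleaved. Since Itgae was near background in PBS, this shift does not show that both chains changed alike. Itgal minus Itgb2 shifted by -0.30 (exact permutation p = 0.143, adjusted p = 0.190) and Itgav minus Itgb1 by -0.28 (exact permutation p = 0.200, adjusted p = 0.229). With any 1 sample left out, the adjusted p of the 5 pairs called with all samples was 0.0571 to 0.0914 and none was called. Since those calls rest on each other, they were not lost independently. Paired by replicate number, the smallest exact permutation p over 16 arrangements is 0.125, so no pair could be called.

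**Figure D3:**
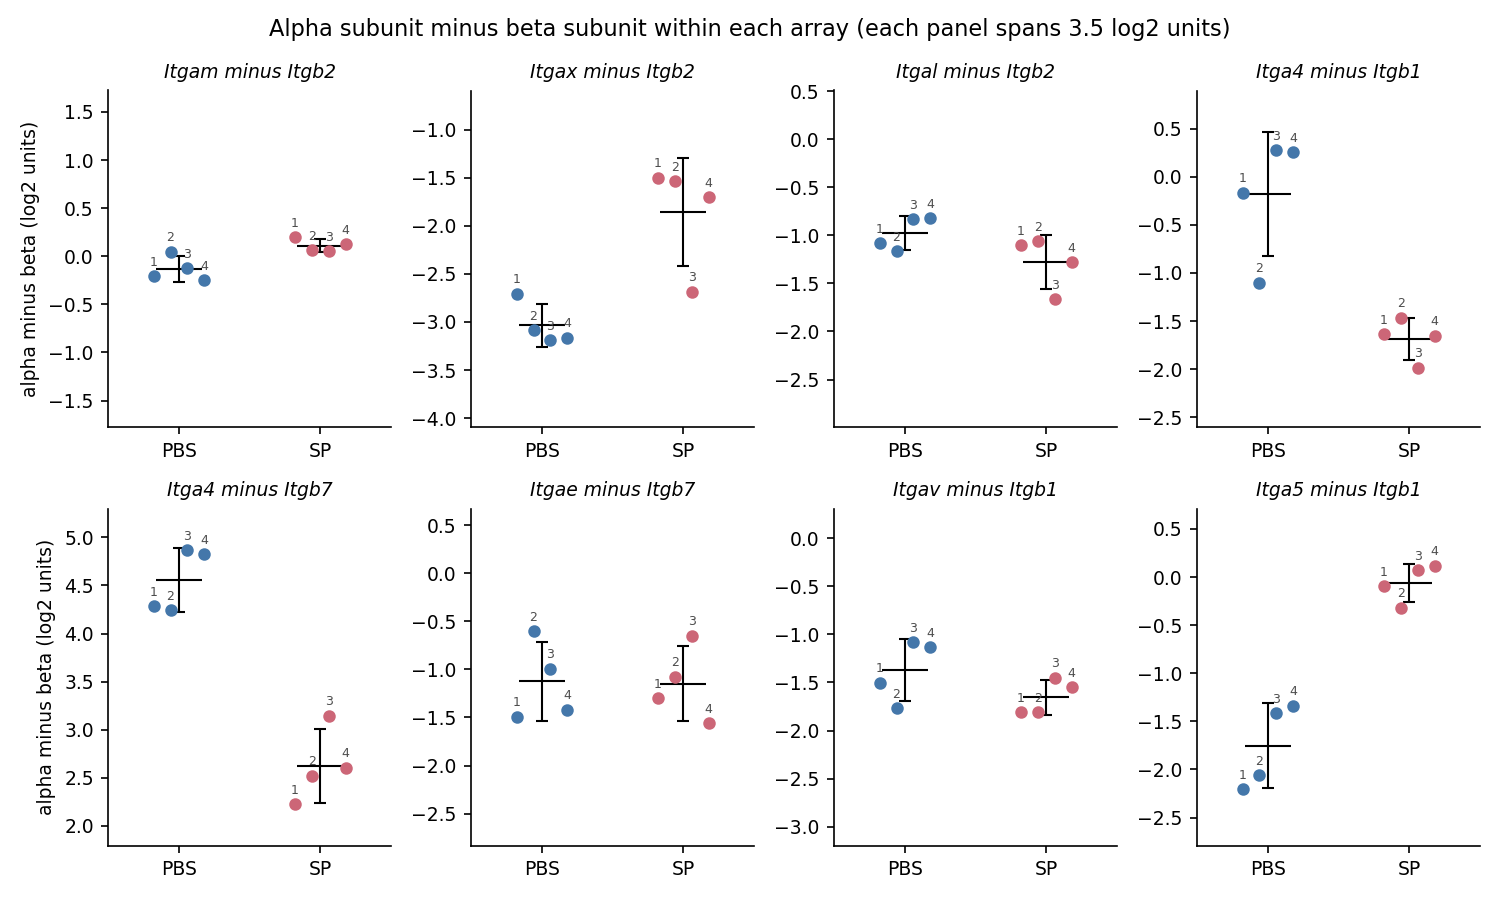
Alpha minus beta log2 value (y axis) of 8 integrin chain pairs in each of 4 PBS and 4 SP samples (points, numbered by sample), with mean (long line) and SD (bars). The groups are apart for Itgam and Itgax over Itgb2, Itga4 over Itgb1 and Itgb7, and Itga5 over Itgb1, and they overlap for the other 3 pairs. Levels are not comparable between panels.

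The 10 genes lie on mouse chromosomes 2, 7, 8, 10, 11 and 15. Itgam and Itgax are direct neighbours on chromosome 7, followed by Itgad, another β2 partner, and the differences of Itgam and Itgax were 0.32 and 1.25. Itgad, at 4.30 to 4.48 in PBS and 4.51 to 4.99 in SP, was at about the level of the Y-linked genes. Its groups did not overlap, and its difference of 0.29 was not called (adjusted p = 0.0761 by limma). To set the upstream sequence of genes that changed unequally side by side, the 250 bases before the annotated start were taken from RefSeq (GRCm38.p6), which was given for 7 of the 10 genes. Shown 5′ to 3′ are Itga5 (chr15:103366792-103367041, minus strand), with the largest rise, the neighbours Itgax (chr7:128129300-128129549, plus strand) and Itgam (chr7:128062390-128062639, plus strand), and Itga4 (chr2:79255176-79255425, plus strand), which fell. Capitals mark matches, on either strand, to short consensus letters: GAGGAA (ETS and PU.1), TGANTCA (AP-1), TGTGGT (RUNX), GGGCGG (Sp1), TATAAA, the core promoter box, and the NF-κB consensus.
Itga5: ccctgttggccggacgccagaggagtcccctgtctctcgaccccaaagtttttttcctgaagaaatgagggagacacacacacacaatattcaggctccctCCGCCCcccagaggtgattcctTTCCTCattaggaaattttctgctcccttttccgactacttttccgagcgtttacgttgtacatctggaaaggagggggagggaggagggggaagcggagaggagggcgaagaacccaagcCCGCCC
Itgax: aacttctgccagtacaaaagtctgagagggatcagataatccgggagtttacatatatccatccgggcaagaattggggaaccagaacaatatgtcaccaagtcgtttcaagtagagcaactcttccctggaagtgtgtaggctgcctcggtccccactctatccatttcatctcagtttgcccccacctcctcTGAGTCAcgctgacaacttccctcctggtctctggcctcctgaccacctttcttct
Itgam: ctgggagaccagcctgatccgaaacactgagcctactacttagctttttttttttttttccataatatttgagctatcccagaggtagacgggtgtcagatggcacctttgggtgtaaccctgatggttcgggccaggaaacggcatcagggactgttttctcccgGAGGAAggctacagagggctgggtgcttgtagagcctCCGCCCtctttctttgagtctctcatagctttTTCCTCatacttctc
Itga4: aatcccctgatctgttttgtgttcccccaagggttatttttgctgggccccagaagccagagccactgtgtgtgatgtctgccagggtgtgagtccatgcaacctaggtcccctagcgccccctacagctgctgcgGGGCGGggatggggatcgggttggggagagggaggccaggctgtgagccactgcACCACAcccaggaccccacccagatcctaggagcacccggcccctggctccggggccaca

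The Itgax window held 1 AP-1 match, at positions -56 to -50 from the start, and none of the other letters. Itgam held GAGGAA at -84 to -79 and, reversed, at -15 to -10, with a reversed GGGCGG at -47 to -42. Itga5 held GAGGAA, reversed, at -127 to -122 and GGGCGG, reversed, at -149 to -144 and at -6 to -1. In Itga4, GGGCGG lay at -114 to -109 and TGTGGT, reversed, at -60 to -55. Neither the TATA nor the NF-κB letters occurred in these 4 windows. Of 32851 mouse promoter windows of the same length, 6.75% held TGANTCA, 23.3% GAGGAA, 14.0% TGTGGT, 32.7% GGGCGG, 12.4% TATAAA and 7.25% the NF-κB consensus. A match describes letters only, and binding was not measured.

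The remaining integrin genes mostly encode chains of epithelium, endothelium, platelets and stroma. Of 15 with a row, 1 was called higher and 5 lower in SP, against 21.5% and 22.6% of all rows. All 6 differed at least 2-fold, against 6.37% higher and 11.3% lower of all rows, and the median difference of the 15 was -0.43 log2 units. With arrays centred on their medians, 5 were called higher and 5 lower, 3 of these at least 2-fold, and with 1 sample left out 3 (without PBS sample 1 or 2) to 8 (without SP sample 4) were called lower. Itgb3, the β3 partner of αV, rose 4.05-fold, from 7.41 ± 0.21 to 9.43 ± 0.46 log2 units (SD, n = 4), with an adjusted p of 0.000213 by limma. Itgb4, the β4 chain of epithelial hemidesmosomes, fell by 2.66 on the log2 scale (9.33 ± 0.31 to 6.66 ± 0.37). The other falls were of Itga8 (-2.36), Itga3 (-1.43), Itgb5 (-1.24) and Itga1 (-1.19). The markers of epithelium and endothelium given above fell in the same samples, and their part in these falls was not tested.

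**Figure D4:**
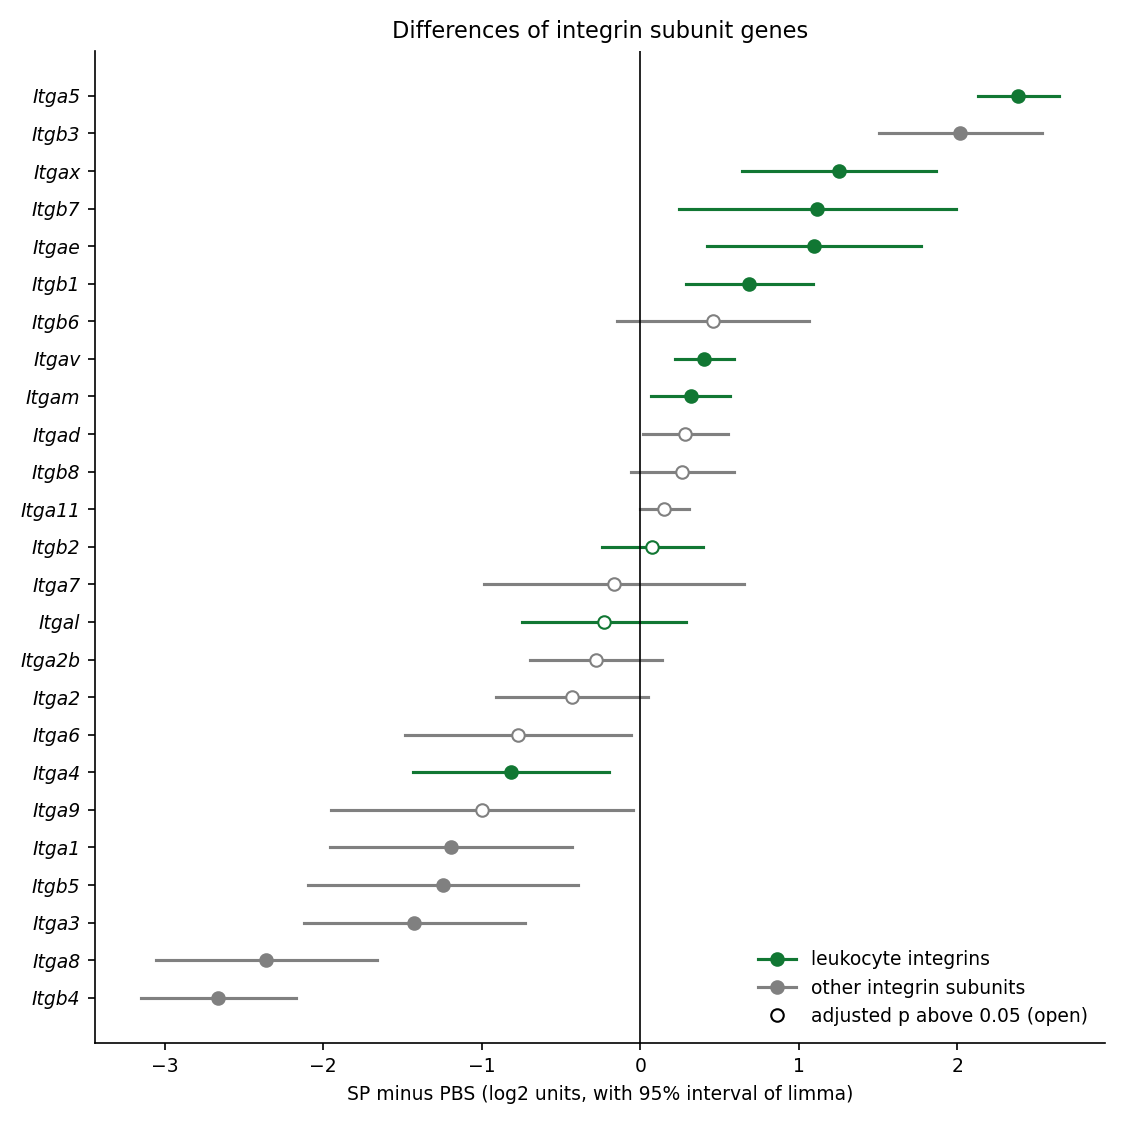
SP minus PBS difference in log2 units (x axis) of all 25 integrin subunit genes with a row, with the 95% interval of limma. Filled points have an adjusted p of at most 0.05. Of the leukocyte integrins (green), 7 are filled to the right of 0 and 1 to the left, and of the other subunits (grey), 1 to the right and 5 to the left.

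The list of regulators of integrin activation holds genes that drive the switch from the bent to the extended form and genes that restrain it. Of 20 measured, 3 were called higher and 6 lower, a share near the 44.1% of all rows, with a median difference of 0.04. All 3 called higher, Dok1, Sharpin (0.50, adjusted p = 0.0240) and Itgb1bp1 (0.60, adjusted p = 0.0123), encode restrainers. Those called lower were Rasgrp2, Fermt2, Vcl, Ilk, Flna and Cytip, of which Flna and Cytip are known as restrainers. Rasa3 (0.08, adjusted p = 0.800) and Sipa1 (-0.28, adjusted p = 0.253), also restrainers, were not called. Rasgrp2, whose product CalDAG-GEFI loads the GTPase Rap1 to activate integrins, fell by 1.90 ± 0.14 on the log2 scale (SE), from a mean of 10.24 to 8.34 (adjusted p = 2.88e-05). Fermt2, the kindlin gene of non-blood cells, fell by 1.06. Dok1, whose product competes with talin for the tail of beta chains, rose by 1.82 ± 0.33 (SE; adjusted p = 0.00271). Tln1, the talin gene of blood cells, differed by -0.13 (adjusted p = 0.425), and Rap1b by 0.01 (adjusted p = 0.957).

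Genes that signal from ligated integrins had 5 calls higher and 0 lower of 11 measured. Their total share was near the 44.1% of all rows (21.5% higher and 22.6% lower), and their median difference was 0.40. Vav1, an exchange factor for Rac, rose by 1.65 ± 0.25 log2 units (SE; adjusted p = 0.00106), and Ptk2b, the kinase PYK2, by 1.06 ± 0.25 (SE; adjusted p = 0.00931). The kinase Syk, the adaptor Lcp2 (SLP-76) and Fcer1g, an adaptor with an activation motif, rose by 0.79, 0.97 and 0.36. Among Src kinases, Lyn differed by 0.33 (adjusted p = 0.0615) and Fgr by 0.18 (adjusted p = 0.578). With arrays centred on their medians, 17 of the activation and signalling genes were called higher and 3 lower.

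Of 19 measured ligand genes, 5 were called higher and 5 lower, shares near the 21.5% and 22.6% of all rows. At least 2-fold were 4 in each direction, against 6.37% higher and 11.3% lower of all rows, and the median difference was 0.21. With arrays centred on their medians, 11 were called higher and 5 lower, and with array weights 9 higher and 5 lower. Icam1, the ligand of LFA-1 and Mac-1, rose by 1.96 ± 0.13 log2 units (SE), from a mean of 10.73 to 12.70 (adjusted p = 1.53e-05). Spp1, osteopontin, which αV, α4 and α5 integrins can bind, rose by 2.55 ± 0.26 (SE; adjusted p = 0.000138). Tgfb1, whose latent form αV integrins release, rose by 1.42 ± 0.11 (SE), and Icam4 by 1.13. Lower in SP were Mfge8 (-2.04), a bridge between αV integrins and dying cells, Cdh1 (-2.01), the E-cadherin bound by αEβ7, Icam2 (-1.30), Vtn (-1.06) and F11r (-0.92). Cdh1 is also on the list of epithelial markers. The part of epithelium and endothelium, whose markers fell in the same samples, was not tested for these ligands. Fn1, fibronectin, differed by 0.51 (95% interval -0.24 to 1.26, adjusted p = 0.216).

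For the 4 genes called at least 2-fold higher, the nearest profiles were sought among 19835 other genes by the mean absolute distance over the 8 arrays, each gene first set to its PBS mean. For Itga5 these were Traf3 (0.11 log2 units), Usp18 (0.12) and Sod2 (0.15). For Itgax they were Alpk2 (0.12), Ticam2 (0.13) and Apol9a (0.15), and for Itgae they were Ocstamp (0.12), Hsdl1 (0.12) and Clca3a1 (0.13). For Itgb7, Otulinl (0.16), F630111L10Rik (0.17) and Dnmt1 (0.18) were nearest. These distances describe likeness over 8 shared arrays.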

How the data were processed

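The authors made the expression values from the scanned arrays by RMA (robust multi-array averaging) with corrections for background, base composition and probe sequence, then normalized arrays by quantiles and summarised the probes of each gene by median polish. The deposited values are log2 intensities, relative within an array, and bright genes may be compressed, which was not tested. Array medians were 6.06 to 6.20 in PBS and 5.78 to 5.91 in SP. The submitters' notes name Affymetrix Expression Console, RMA and Partek. The number of arrays limits the precision. No 2 arrays held identical values.

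RefSeq accessions of rows were matched to symbols with a RefSeq gene table (GRCm38.p6), which named 19915 of 24625 rows (80.9%). All rows, named or not, were compared with limma 3.58.1 (R 4.3.3; lmFit and eBayes, two-sided, Benjamini-Hochberg over all rows), at an adjusted p of 0.05 and a difference of 1 log2 unit. Groups and replicate numbers followed the titles. The members, gene lists and tests were chosen with earlier results of these data known. Named were all 10 members, up to 5 genes of each pathway list with the largest called 2-fold differences, of each cell type the 2 brightest markers (given here for Lcn2, Retnlg, Cd3e, Tcf7, Klrk1 and Gzma) and the 3 nearest profiles. Other genes (Itga1, Itgad, Tln1, Rap1b, Sharpin, Itgb1bp1, Vcl, Ilk, Flna, Cytip, Rasa3, Sipa1, Syk, Lcp2, Fcer1g, Lyn, Fgr, Icam2, Icam4, Vtn, F11r, Fn1, Camp, Ltf, Ngp, Csf3r, Cd3d and Cd4) were named after their values were seen. Of the listed genes, Itga10, Fermt3, Ptk2, Vcam1, Fabp4, Trac and Foxj1 had no matched row, and 1 listed gene is not reported here. The scripts were tested on simulated data. Alternatives were a trended robust prior, the methods' t-test (their ANOVA for a pair of groups), a block for replicate number, array weights, median centring, quantile normalization, leaving out the dimmer rows and leaving out each sample. MicroRNA arrays of the study were not analysed here.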

Additional observations from a re-analysis of the deposited data

Results flagged for a closer look

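Of 36 groups of 4 samples examined, 2 held a sample whose gap to the nearest other sample, relative to the range of its group, passed Dixon's 95% critical value. Chance flags about 1 group in 20. Itga4 in PBS sample 2 was at 10.1849 log2 units, a gap of 0.897 of the range of its group. Itgax minus Itgb2 in SP sample 3 was at -2.68547 log2 units, a gap of 0.831 of the range. SP sample 3 also had the highest neutrophil marker mean (12.84, against 11.69 to 12.05 in the other SP samples) and a second principal component of -51.4, against 16.2 to 26.8. The gap among the neutrophil markers was widest for Camp, Ltf and Ngp, and Csf3r was lowest in SP sample 3.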

How the results depend on the processing

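Under 15 alternatives, the calls of Itga5, Itgax and Itgav were made each time, that of Itgae in each of 14, and that of Itgb1 in all but quantile normalization. With each sample left out in turn, the differences ranged from 0.24 to 0.41 for Itgam, -1.02 to -0.60 for Itga4, 0.92 to 1.50 for Itgb7 and -0.059 to 0.16 for Itgb2, which was negative without PBS sample 2 alone. The counts of members ranged from 5 to 6 called higher, 0 to 1 lower, 2 to 4 higher at least 2-fold and 0 to 1 lower at least 2-fold. Of the other integrin genes 3 to 8 were called lower, 3 to 6 at least 2-fold, and 1 to 2 activation and signalling genes lower at least 2-fold. The methods' t-test gave Itgam 0.32 (adjusted p = 0.0579), Itga4 -0.81 (0.0783), Itgb7 1.12 (0.0863), 0 members lower, and 2 other integrins higher and 3 lower, 3 of them at least 2-fold. The trended robust prior called 3 other integrins and 9 ligand genes higher. Array weights gave Itgb2 -0.038, 2 other integrins higher and 3 lower at least 2-fold, 1 activation or signalling gene lower at least 2-fold, and 9 ligand genes higher and 2 lower at least 2-fold. Centring arrays on their medians moved the median row difference from 0.10 to 0.38, gave Itgal 0.054, Itga4 -0.53 (adjusted p = 0.0909), 0 members lower, 5 other integrins higher and 3 lower at least 2-fold, 17 activation and signalling genes higher (5 at least 2-fold) and 3 lower (1 at least 2-fold), and 11 ligand genes higher. It called 18255 rows against 10860, and the share of 2-fold calls that were lower was 63.9%, 44.4% when centred and 53.9% under quantile normalization. Quantile normalization gave Itgam 0.11 (adjusted p = 0.286), Itgb2 -0.12, Itgb1 0.46 (0.122) and 2 other integrins higher. With the dimmer rows left out (12313 tested), Itgam was at 0.32 (adjusted p = 0.0648) and 3 ligand genes were higher. Causes of these moves were not tested, beyond the fewer samples or rows entered.

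Same-numbered samples did not deviate together (r = -0.27 to 0.35, 1 of 4 pairs over 0.1, and 2 of 8 samples nearest to their own number), so the numbers were not taken as pairs. With the replicate block, 9842 rows were called, Itgam was at 0.32 (adjusted p = 0.0578), Itga4 at -0.81 (0.0831) and 0 members were lower. With the numbers as pairs, Itgam minus Itgb2 (0.24), Itgax minus Itgb2 (1.18), Itga4 minus Itgb1 (-1.50), Itga4 minus Itgb7 (-1.93) and Itga5 minus Itgb1 (1.70) each had an exact permutation p of 0.125, the smallest that the pairing allows.

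The shifts of pairs of chains with 1 sample left out were 0.20 to 0.30 for Itgam minus Itgb2, 1.06 to 1.46 for Itgax minus Itgb2, -1.81 to -1.35 for Itga4 minus Itgb1, -2.10 to -1.80 for Itga4 minus Itgb7 and 1.55 to 1.84 for Itga5 minus Itgb1. Itgae minus Itgb7 ranged from -0.19 to 0.15 and turned positive without PBS sample 2 (0.15), PBS sample 3 (0.02), SP sample 1 (0.03) or SP sample 4 (0.12). Averaging several rows of a symbol was not run, since no member had several.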
